A study of Mus musculus with 38 samples.

Results

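The soleus muscle of 8 mice fasted into daily torpor (Mid) was compared with that of 4 mice that kept their food at low ambient temperature (Fed), promoter by promoter. The libraries were chosen by their titles, Mid 1 to 8 and Fed 1 to 4, and are 12 of the 38 libraries of the series. All were male young adult C57BL/6J mice with an implanted telemetry temperature sensor, and each mouse gave 1 library of 1 or both soleus muscles. Mid mice lost access to food at the start of day 2, and were sampled later on day 2 at low ambient temperature, when mice of this strain are likely to be torpid. Torpor comes in bouts, and by the study's account of their oxygen use some Mid mice were torpid when sampled and others were between bouts; the state of each mouse was not used here. Fed mice were sampled on day 2 at the same low ambient temperature. The sources on the Fed mice differ, since the sample titles, the series design and the methods call them fed, while the condition field of these 4 samples reads starvation. They are treated as fed here, and the mean level of *Pdk4*, a gene known to rise in fasted muscle, was 442 ± 205 tags per 1000000 tags (TPM, SD, n = 4) in Fed and 438 in the 4 Pre mice fed freely on day 1. Mid and Fed therefore differ both in food and in entry into torpor, and the effects of the 2 cannot be told apart in this pair of groups.

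RNA 5′ ends were captured by nAnT-iCAGE, a form of cap analysis of gene expression without PCR amplification. Each tag marks the 5′ end of a captured RNA, which is taken as a start site of transcription. The authors grouped neighbouring start sites into promoter clusters, so that a gene with several promoters has several values. Of 10819 clusters in the table, 10776 had at least 1 tag in the 28 libraries of the first set and were tested. The first set holds every library except those of the study's second, independent batch of mice. Levels (TPM) are tags per 1000000 tags in clusters, scaled with TMM factors, and changes are log2 fold changes of Mid over Fed from the quasi-likelihood test of edgeR, with Benjamini-Hochberg FDRs over all 10776 promoters.

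A muscle in a fed mouse burns glucose and stores fat, under the control of insulin. In fasting, falling insulin and rising glucocorticoids and catecholamines turn the muscle to fatty acids, and to the breakdown of its own protein, through FOXO factors, the glucocorticoid receptor, PPAR factors and the coactivator PGC-1α. In torpor, a mouse in addition lowers its metabolic rate and body temperature for hours. The soleus is a slow, oxidative muscle of the calf, rich in mitochondria.

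Sequences are shown for 7 promoters that carry the largest rise, the glucocorticoid, FOXO and clock elements, and 1 of the largest falls. They are the 250 bases before the gene start in RefSeq on GRCm38.p6, written 5′ to 3′ on the strand of the gene, and capitals mark a motif read by its letters on either strand. *Ppargc1a* encodes PGC-1α, and the sequence at chr5:51567726-51567975 (minus strand) lies before the upstream start, which rose most. Its capitals mark the core of a cyclic AMP response element (TGACG, here on the opposite strand), 49 bases before the start. *Trim63* encodes MuRF1, a ubiquitin ligase of muscle protein. In its promoter at chr4:134314870-134315119 (plus strand), a glucocorticoid response element (GNACA and TGTNC with 3 free bases between them) and a FOXO site (TGTTTAC) stand side by side, 208 and 194 bases before the start. *Txnip* encodes a brake on glucose uptake, and its promoter at chr3:96557707-96557956 (plus strand) has the same pair, 172 and 121 bases before the start. The promoters of *Map3k6*, a stress kinase, at chr4:133240568-133240817 (plus strand) and of *Fam107a*, a glucocorticoid-induced gene, at chr14:8309778-8310027 (minus strand) have the glucocorticoid element at 181 and 120 bases. *Per1* is a clock gene induced by glucocorticoids, and the second of its promoters, at chr11:69098699-69098948 (plus strand), has an E-box (CACGTG) at 166 bases and a D-box (TTATGNAA) at 24 bases. *Pnpla3*, a lipid droplet protein of fat synthesis, has the full cyclic AMP response element (TGACGTCA) 46 bases before its start, at chr15:84167566-84167815 (plus strand).
Ppargc1a: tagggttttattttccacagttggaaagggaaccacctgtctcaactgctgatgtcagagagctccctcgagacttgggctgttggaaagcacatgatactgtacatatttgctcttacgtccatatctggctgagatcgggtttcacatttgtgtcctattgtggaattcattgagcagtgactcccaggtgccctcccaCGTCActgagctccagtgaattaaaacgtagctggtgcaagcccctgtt
Trim63: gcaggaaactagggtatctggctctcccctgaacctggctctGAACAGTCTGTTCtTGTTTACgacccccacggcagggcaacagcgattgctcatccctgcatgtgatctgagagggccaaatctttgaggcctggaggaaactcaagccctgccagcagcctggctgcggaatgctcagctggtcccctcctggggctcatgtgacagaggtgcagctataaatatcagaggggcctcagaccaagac
Txnip: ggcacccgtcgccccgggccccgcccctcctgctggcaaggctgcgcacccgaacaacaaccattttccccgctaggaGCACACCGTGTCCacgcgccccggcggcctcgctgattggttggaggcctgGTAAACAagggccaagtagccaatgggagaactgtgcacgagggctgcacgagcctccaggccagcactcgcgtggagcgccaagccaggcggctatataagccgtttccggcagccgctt
Map3k6: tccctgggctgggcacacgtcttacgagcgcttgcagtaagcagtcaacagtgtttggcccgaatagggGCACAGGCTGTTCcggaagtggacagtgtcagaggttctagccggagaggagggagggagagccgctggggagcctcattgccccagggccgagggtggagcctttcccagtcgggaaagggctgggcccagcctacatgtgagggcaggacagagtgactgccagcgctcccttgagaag
Fam107a: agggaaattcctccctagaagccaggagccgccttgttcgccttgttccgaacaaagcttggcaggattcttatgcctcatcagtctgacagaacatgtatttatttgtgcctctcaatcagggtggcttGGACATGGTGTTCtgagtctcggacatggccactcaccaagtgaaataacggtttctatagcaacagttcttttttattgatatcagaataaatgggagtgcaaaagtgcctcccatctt
Per1: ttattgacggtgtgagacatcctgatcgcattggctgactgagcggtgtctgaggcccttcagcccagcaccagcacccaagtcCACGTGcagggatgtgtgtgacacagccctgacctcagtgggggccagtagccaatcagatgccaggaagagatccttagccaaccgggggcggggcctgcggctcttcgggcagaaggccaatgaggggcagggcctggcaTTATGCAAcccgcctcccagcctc
Pnpla3: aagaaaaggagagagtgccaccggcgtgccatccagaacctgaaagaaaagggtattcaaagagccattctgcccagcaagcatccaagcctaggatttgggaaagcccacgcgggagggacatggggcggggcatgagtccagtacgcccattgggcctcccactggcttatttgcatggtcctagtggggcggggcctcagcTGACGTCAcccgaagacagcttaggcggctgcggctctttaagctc

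Of 10776 promoters, 1788 were up-regulated in Mid at an FDR below 0.05 (16.6%) and 2009 were down-regulated (18.6%). Most changes were small. The median log2 fold change was 0.42 among up-regulated promoters and -0.51 among down-regulated ones, and it was 0.003 over all promoters. A change of at least 2-fold was found in 265 up-regulated promoters (2.46%) and 287 down-regulated ones (2.66%). A fit of only the 12 Mid and Fed libraries called fewer promoters, 1207 up and 1631 down. Leaving out Fed 2 and Fed 3 gave 1198 up and 1365 down. Every Mid library lay above every Fed library in 745 promoters (6.91%), of which 736 were called, and below in 720 (6.68%), of which 713 were called. Without TMM factors the median of all promoters moved to -0.12 and up-regulated promoters fell from 47.1% to 23.3% of the calls, and 213 and 376 promoters then passed at least 2-fold up and down, so that small changes are relative to the scaling.

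**Figure D1:**
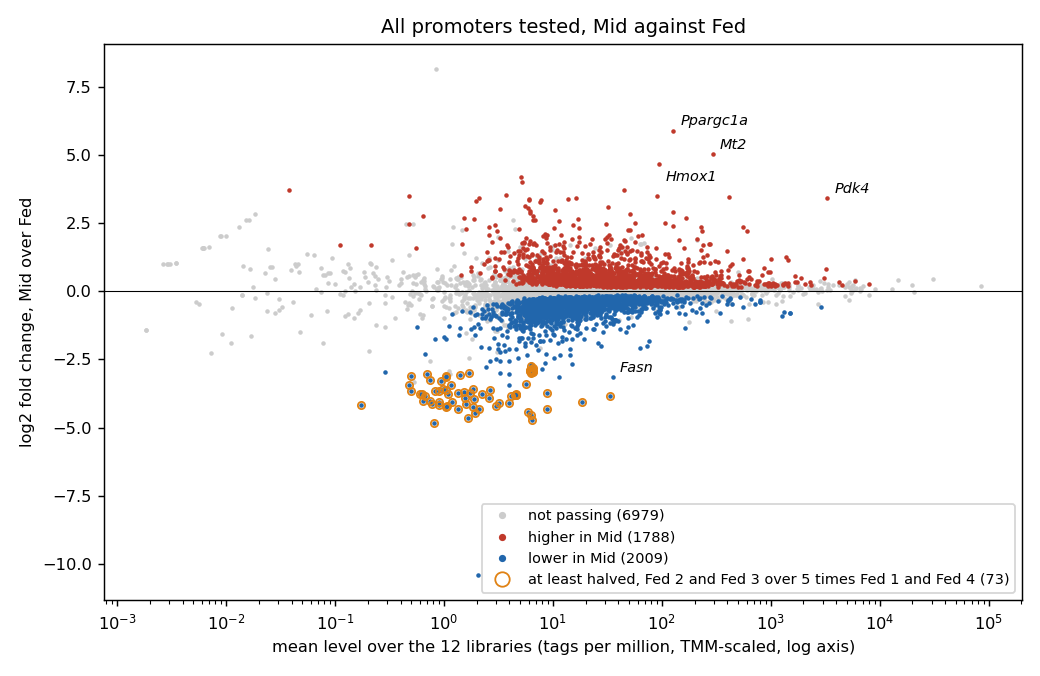
All 10776 promoters tested, with the mean level over the 12 libraries in TPM on a log axis and the log2 fold change of Mid over Fed on the vertical axis. Red points (1788) were up-regulated, blue points (2009) down-regulated and gray points did not pass; the 73 circled points are the down-regulated promoters whose level in Fed 2 and Fed 3 was more than 5 times that in Fed 1 and Fed 4, and they form a band of low levels below -2.5.

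The libraries held between 18257657 and 39176649 tags in clusters in Fed, and between 23726836 and 31834199 in Mid (difference of means, p = 0.691, exact permutation test, two-sided). TMM factors (p = 0.222) and the share of tags in the 10 largest clusters (p = 0.764) were compared by the same exact permutation test. Slow muscle genes (7 of 7 measured) summed to between 10230.0 and 15420.0 TPM in the 12 libraries, as the soleus should show, and lymphocyte genes had no cluster (0 of 5). By the mean distance between libraries (root mean square log2 difference of the 500 most different promoters), Fed 1 was the only 1 of the 12 that lay nearer to the other group (2.45) than to its own (2.55). Genes of other tissues differed between Fed libraries. The sum of 16 liver genes (of 17, a list made after the data were seen) was 23.3, 575, 391 and 96.4 TPM in Fed 1 to 4 and between 41.0 and 198 in Mid. *Alb*, the serum albumin gene, stood at 0.533, 217.8, 129 and 4.06 TPM in Fed 1 to 4, against at most 27.5 in Mid. Of the 287 promoters down-regulated at least 2-fold, 73 were more than 5 times higher in Fed 2 and Fed 3 than in Fed 1 and Fed 4, and 147 had no overlap between Mid and Fed. Without Fed 2 and Fed 3, 232 promoters passed at least 2-fold down and 255 at least 2-fold up. Red blood cell genes (5 of 6) were at 13750.0 in Fed 2 and at 2814 to 5022 in the other libraries, Schwann cell genes (6 of 6) at 393 in Fed 2 and at 89.4 to 208 elsewhere, and fast glycolytic muscle genes (7 of 7) at 10190.0 in Fed 1, 9234 in Mid 2 and 5385 to 7842 elsewhere. Adipocyte genes (8 of 8) reached 4436 in Mid 1 and 2137 to 3337 elsewhere. Macrophage genes (8 of 9) lay between 62.8 and 109, and neutrophil genes (4 of 7) at 0.796 or less in all 12 libraries. Endothelial genes (6 of 6) were the only 1 of these lists whose sums did not overlap, at 314 to 356 in Fed and 268 to 311 in Mid, with 4 of 6 genes down-regulated. The part of these tissues in the changes of other genes was not tested. In bulk muscle, fewer cells of a type and less RNA per cell cannot be told apart.

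The genes with the 15 largest rises and 15 largest falls were taken among promoters with an assigned gene, a mean of at least 1 TPM and no overlap between Mid and Fed. The promoter with the largest rise was the upstream start of *Ppargc1a* (chr5:51567615-51567874, minus strand), the coactivator that drives mitochondrial and fatty acid genes. It stood at 0.693, 2.58, 3.31 and 5.57 TPM in Fed 1 to 4, and at 32.6 (lowest), 181 (median) and 417 (highest) in Mid. All 8 Mid libraries were above all Fed libraries, and the lowest of them was Mid 6. The log2 fold change was 5.89 ± 0.71 (SE, FDR = 9.72e-07).

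Next in size were genes of metal and heme handling. *Mt2* and *Mt1* encode metallothioneins, which bind zinc and are induced by both zinc and glucocorticoids. *Mt2* was at 7.46, 14.1, 15.2 and 15.8 in Fed and at 40.2, 299 and 1131 (lowest, median, highest) in Mid, a log2 fold change of 5.03 ± 0.61 (FDR = 9.72e-07). *Mt1* was at 38.8 to 66.9 in Fed and at 151, 510 and 1226 in Mid, with 3.44 ± 0.39 (FDR = 4.52e-07). *Hmox1*, the inducible heme oxygenase, was even across Fed, at 5.24 to 5.81, and spread widely in Mid, at 10.6, 72.0 and 601, with 4.65 ± 0.83 (FDR = 0.000118). Mid 5 was far above the next Mid library for *Hmox1*, at 601 against 148, and without Mid 5 the log2 fold change was 3.71. This library was also highest for *Slc30a2*, a zinc exporter into vesicles, at 21.2 against 9.40. *Slc30a2* rose from a Fed mean of 0.911 ± 0.138 to 7.96 ± 5.80 (3.12 ± 0.48, FDR = 1.91e-05), and the internal promoter of the zinc importer *Slc39a14* from 0.461 ± 0.184 to 7.64 ± 3.26 (4.0 ± 0.47, FDR = 6.13e-07).

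Fuel genes followed. *Pdk4* encodes the kinase that shuts off pyruvate dehydrogenase and so keeps glucose carbon out of the mitochondria. It stood at 259.6, 582, 654 and 274 in Fed and at 1717, 4904 and 5944 in Mid, and its log2 fold change was 3.41 ± 0.29 (FDR = 3.97e-08). Of the Mid libraries, 7 lay at or above 4640.0 and only Mid 6 lay below, at 1717. Within the body of *Pdk4*, 7 further clusters far from its start were all up-regulated, by 2.75 to 3.54. Whether they are starts of their own was not tested, and they are not counted as separate evidence for *Pdk4*. *Acot1*, a cytosolic acyl-CoA thioesterase, was at 1.24 to 3.06 in Fed and 9.27, 24.8 and 32.6 in Mid (3.40 ± 0.31, FDR = 4.19e-08). It has a close copy, *Acot2*, and the way tags that map to both were shared out is not given in the sources used here. *Ampd3*, an AMP deaminase, rose from 9.93 ± 1.44 to 70.9 ± 26.7 (2.84 ± 0.27, FDR = 6.07e-08).

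The other genes among the 15 largest rises came from signalling and from lesser known families. The most downstream of 4 promoters of *Pde4d*, a phosphodiesterase that breaks down cyclic AMP, rose from 4.85 ± 1.25 to 65.4 ± 27.8 (3.73 ± 0.45, FDR = 9.72e-07). *Depp1*, a FOXO target that acts on autophagy, rose from 5.30 ± 1.23 to 45.6 ± 19.8 (3.09 ± 0.37, FDR = 7.69e-07). *St3gal5*, the GM3 ganglioside synthase, rose from 23.7 ± 3.50 to 179 ± 67.4 (2.92 ± 0.36, FDR = 1.12e-06). *Lrch1*, *Arpp19* (a regulator of protein phosphatase 2A) and *Krt80* (a keratin) rose by 3.40 ± 0.35, 3.38 ± 0.37 and 2.76 ± 0.33 from Fed means of 1.86, 0.810 and 1.35 TPM.

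**Figure D2:**
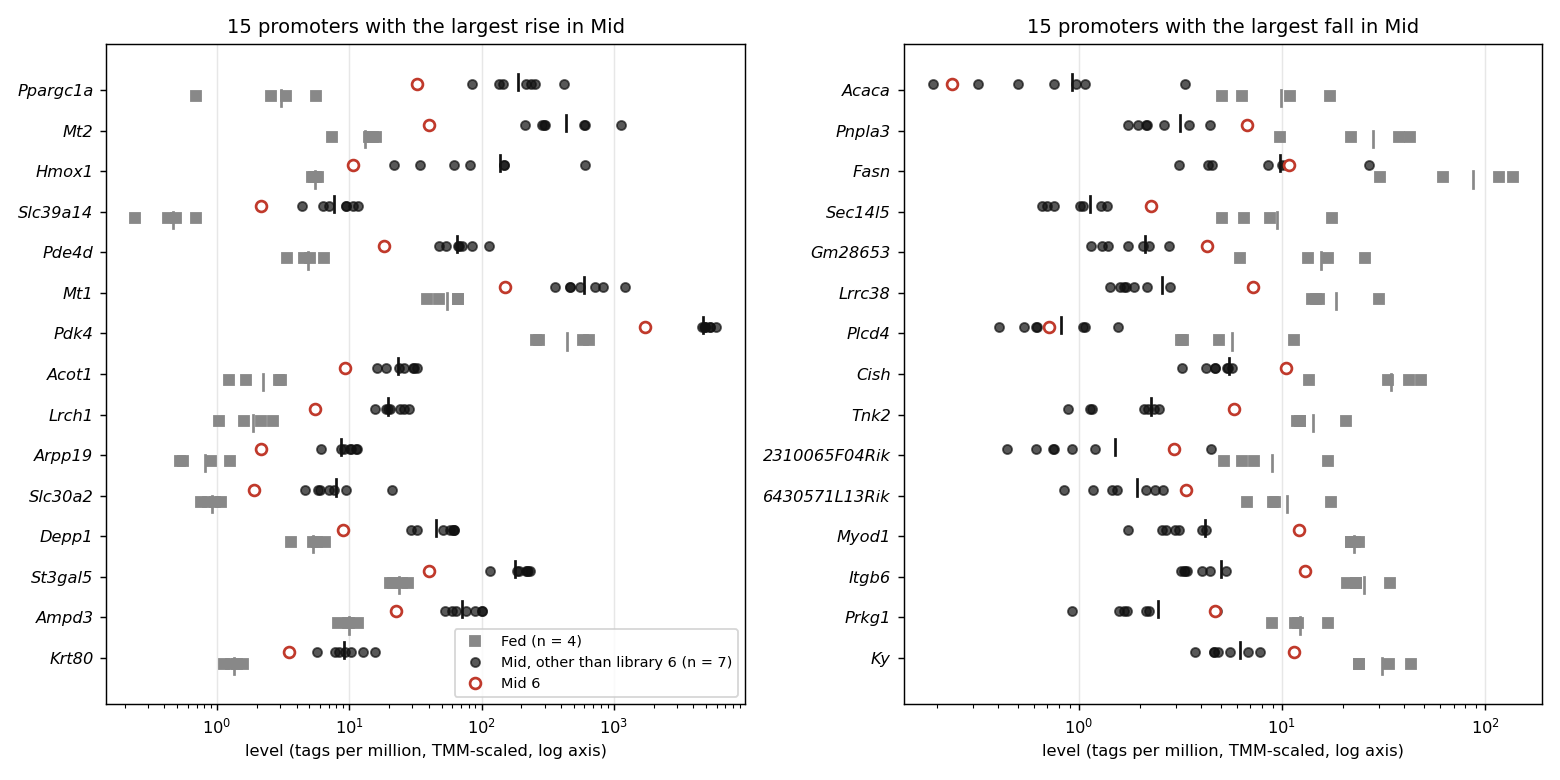
Level of the 15 promoters with the largest rise (left) and the largest fall (right) in every library, in TPM on a log axis. Gray squares are the 4 Fed libraries, black circles 7 Mid libraries, red open circles Mid 6, and vertical ticks the group means; no Mid point reaches a Fed point, and Mid 6 lies nearest to Fed in all 15 rises and in 10 of the 15 falls.

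Among the promoters without overlap, the largest falls were in fat synthesis. Larger fitted falls, such as those of the liver genes *Apoa2* (-4.43) and *Ces1c* (-4.33), came with overlap and with high levels in Fed 2 and Fed 3. *Acaca* encodes acetyl-CoA carboxylase, which makes malonyl-CoA, and its upstream promoter was at 6.39, 11, 5.09 and 17.3 in Fed and at 0.191, 0.629 and 3.33 in Mid (-3.45 ± 0.49, FDR = 6.41e-06). *Fasn*, the fatty acid synthase, was at 62.4, 117, 30.3 and 138 in Fed and at 3.11, 9.24 and 26.7 in Mid (-3.15 ± 0.43, FDR = 4.67e-06). *Pnpla3* was at 21.8, 37.9, 9.78 and 42.7 in Fed and at 1.75, 2.40 and 6.70 in Mid (-3.16 ± 0.36, FDR = 4.58e-07). In all 3, Fed 3 and Fed 1 were the lower and Fed 2 and Fed 4 the higher Fed libraries. Mid 1 was the highest Mid library for *Acaca* and *Fasn*, and it was also the highest in the adipocyte genes. Without Mid 1 the change of *Acaca* was -4.12.

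*Cish*, a cytokine-induced inhibitor of growth hormone signalling, was at 13.5, 42.0, 33.3 and 48.3 in Fed and at 3.21, 5.03 and 10.5 in Mid (-2.65 ± 0.33, FDR = 1.27e-06). *Myod1*, the myogenic transcription factor, was nearly even in Fed at 21.8, 22.8, 23.8 and 21.8, and stood at 1.74, 3.04 and 12.1 in Mid (-2.44 ± 0.29, FDR = 7.23e-07). Again the Mid library nearest to Fed was Mid 6, for both genes. *Ky*, a muscle cytoskeletal protein whose loss gives kyphoscoliosis in mice, fell from 31.2 ± 9.29 to 6.19 ± 2.51 (-2.33 ± 0.22, FDR = 6.12e-08). *Itgb6*, an integrin subunit, fell from 25.3 ± 5.84 to 4.99 ± 3.31 (-2.34 ± 0.26, FDR = 3.58e-07). *Lrrc38*, an auxiliary subunit of BK potassium channels, fell from 18.6 ± 7.78 to 2.56 ± 1.93 (-2.86 ± 0.30, FDR = 1.54e-07). The kinase gene *Tnk2* fell by 2.65 and *Plcd4*, a phospholipase C, by 2.79 on the log2 scale, and the internal promoter of *Prkg1*, the cyclic GMP kinase, fell by 2.34. *Sec14l5*, *Gm28653*, *2310065F04Rik* and *6430571L13Rik* fell by 3.05, 2.87, 2.56 and 2.45. The named promoters were picked for their size in this same contrast, so their fold changes describe these libraries only.

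Mid 6 was the Mid library nearest to Fed in 43.7% of all up-regulated and 39.2% of all down-regulated promoters, against 1.4% to 24.7% for each of the other Mid libraries. With Mid 6 left out, 2055 promoters passed upward and 1862 downward, 294 and 290 of them by at least 2-fold. Its markers of other tissues lay within the range of the other Mid libraries, except for lower red blood cell and Schwann cell sums of 2989 and 89.4 and a higher macrophage sum of 95.3. It had the lowest TMM factor of the Mid libraries (0.831, against 0.882 to 1.15), the largest share of tags in the 10 largest clusters (31.5%, against 15.1% to 27.1%) and the largest share on the mitochondrial chromosome (4.43%, against 2.31% to 4.21%). The part of these in the nearness of Mid 6 to Fed was not tested.

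Some genes changed strongly at 1 promoter and little at another. Of the 30 genes with the largest changes, 10 had other tested promoters, 13 in all. These 13 had log2 fold changes between -0.48 and 0.79, and 9 of them did not pass, where 35.2% of all promoters passed. The genes were picked for 1 promoter with an extreme change, so smaller changes at their other promoters follow in part from the choice. The downstream promoter of *Ppargc1a* (chr5:51553735-51554071), 13853 bp away, was at 45.4 ± 6.72 in Fed and 36.3 ± 8.95 in Mid (-0.32 ± 0.14, FDR = 0.0724). In Fed libraries it was thus the main start of the gene and in Mid the upstream start was. The other promoter of *St3gal5* was at 197 ± 13.3 in Fed and 192 ± 30.7 in Mid (-0.04 ± 0.11, FDR = 0.826), and that of *Ampd3* at 13.8 ± 1.54 and 13.4 ± 1.83 (-0.04 ± 0.10, FDR = 0.775). *Pde4d* had 3 other promoters, with -0.11, -0.06 and 0.79, of which only the last passed (FDR = 0.00014). *Acaca* lost its upstream start by 3.45 while 2 downstream starts were at -0.39 (FDR = 0.0335) and -0.48 (FDR = 0.0729). The other promoters of *Arpp19* and *Slc39a14* passed, at 0.29 ± 0.07 and 0.43 ± 0.12.

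Of 459 genes with more than 1 tested promoter, 26 had promoters called in opposite directions. Over all promoters 16.6% were called up and 18.6% down, so opposite calls also arise between unrelated promoters. Whether 26 exceeds what those shares give was not tested. *Casz1*, a zinc finger transcription factor, came first when genes were ranked by the smaller of the 2 opposite changes, with an internal promoter at 2.98 ± 0.670 in Fed and 11.5 ± 2.45 in Mid (1.93 ± 0.19, FDR = 8.66e-08) and a promoter 96729 bp upstream at 12.3 ± 3.35 and 6.35 ± 1.17 (-0.95 ± 0.13, FDR = 6.77e-06). Both promoters of *Casz1* separated Mid from Fed without overlap. *Dysf*, the dysferlin of membrane repair, fell at its upstream promoter by 0.99 and rose at a promoter 191034 bp further on by 0.72. *Ccnd3*, cyclin D3, rose at the upstream promoter (1.31 ± 0.22) and fell at the downstream one (-0.71 ± 0.15). *H6pd* (1.5 and -0.65) and *Tsc22d1* (0.62 and -0.70) came next, and in *H6pd* 1 library, Mid 1, stood at 33.7 against 12.2 for the next.

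**Figure D3:**
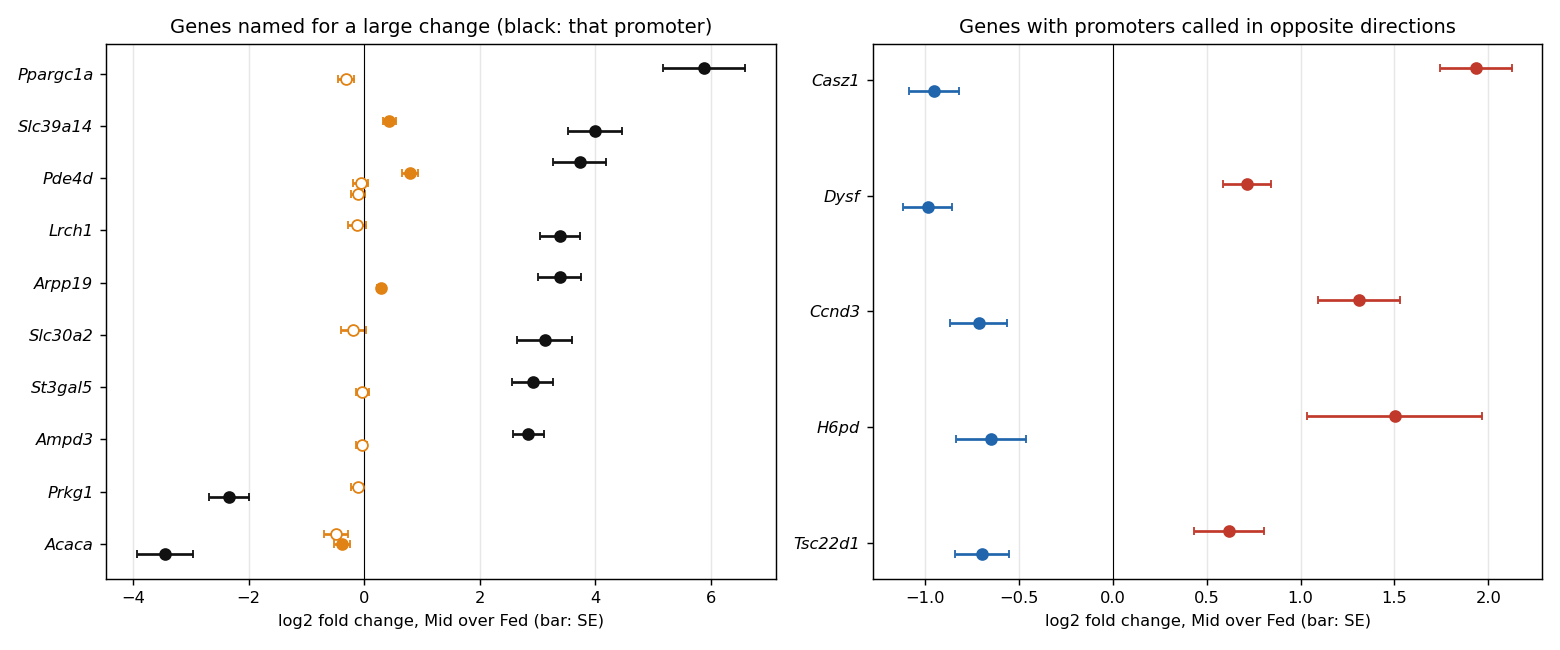
Log2 fold change of Mid over Fed with its SE for promoters of the same gene. On the left, black points are the promoters with the largest changes and orange points the other promoters of those 10 genes, filled where they passed, all between -0.48 and 0.79. On the right, red and blue points are the promoters called up and down in the 5 genes whose smaller change was largest, led by *Casz1* at 1.93 and -0.95.

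The following gene groups are described with 1 promoter per gene, the 1 with the highest mean over Mid and Fed. Over all 9053 genes counted in this way, 16.5% were up-regulated and 19.6% down-regulated, and the median log2 fold change was -0.02. Medians near 0 depend on the scaling. Without TMM factors the medians of 9 of the 38 groups turned negative, at -0.13 for the immediate early, -0.12 for the metallothionein and zinc, -0.10 for the contractile, -0.07 for the mitochondrial carrier, -0.06 for the mitochondrial ribosomal, -0.04 for the cytosolic ribosomal and heat shock, -0.02 for the insulin and -0.01 for the antioxidant group, and the first 3 were also negative with upper-quartile scaling. Counts of small rises depended on the scaling too, and without TMM factors those up numbered 8 in fatty acid uptake and oxidation, 3 in the PGC-1, ERR and PPAR group, 10 in autophagy, 5 in the clock and integrated stress groups, 4 in the antioxidant, mTOR and growth arrest groups, 3 in the heat shock, insulin and vascular groups 0 in the cold-inducible group and 9 in the remaining solute carriers, against the counts given below. In pyruvate dehydrogenase control, 4 of 12 genes rose and 1 fell (median 0.13). Beside *Pdk4*, the phosphatase *Pdp2* rose by 1.82 ± 0.18 and the phosphatase *Pdp1*, the main form in muscle, fell by 0.90. Of the PGC-1, ERR and PPAR regulators, 8 of 21 rose and 1 fell (median 0.19). *Ppara*, the fatty acid receptor, rose from 30.6 ± 4.03 to 70.7 ± 11.4, and *Ppargc1b*, the sister of *Ppargc1a*, fell from 18.9 ± 6.69 to 8.10 ± 2.65.

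Of 28 genes of fatty acid uptake and oxidation, 24 rose and none fell (median 0.39). Most rises were modest, such as that of *Cpt1b*, the carnitine palmitoyltransferase of muscle, which was at 107, 105, 140.4 and 117 in Fed and at 139, 157 and 182 in Mid (0.43 ± 0.08, FDR = 0.000302). *Fabp3*, the abundant fatty acid binding protein of muscle, was at 1501 to 2908 in Fed and 2708 to 4467 in Mid (0.81 ± 0.16), with overlap. *Acot2*, *Ehhadh* (of peroxisomal oxidation) and *Slc25a20* (the carnitine carrier) rose by 1.60, 1.40 and 0.76. Of 16 lipolysis genes, 6 rose and 2 fell (median 0.35). *Pnpla2*, the fat triglyceride lipase, rose from 103 ± 16.6 to 291 ± 66.7 and its inhibitor *G0s2* fell from 146 ± 34.9 to 36.3 ± 15.2. *Angptl4*, an inhibitor of lipoprotein lipase that rises in fasting, was up by 1.92 ± 0.42 and *Angptl8*, its counterpart in feeding, down by 2.97 ± 0.60, from Fed levels below 1.02 TPM. The droplet coat genes *Plin5*, *Plin4* and *Plin2* rose by 1.31, 1.05 and 0.68.

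Fat and cholesterol synthesis showed the lowest medians of the 38 groups. Of 17 fatty acid synthesis genes, 11 fell and 3 rose (median -0.72). The median of this group was -0.45 without Fed 2, -0.46 without Fed 4 and -0.36 for Mid 1 to 4 against Fed 1 to 4, with 8 down in this last fit. Without Fed 4 and for Mid 1 to 4 against Fed 1 to 4, the interferon group had a lower median (-0.48 and -0.38). *Acly*, which makes cytosolic acetyl-CoA, fell from 36.2 ± 15.1 to 10.7 ± 1.81, and *Thrsp* by 1.33 on the log2 scale. *Acacb*, whose product makes the malonyl-CoA that inhibits fatty acid oxidation, rose by 0.60 ± 0.11. *Scd1*, a desaturase also strong in fat tissue, did not pass (-0.72 ± 0.67, FDR = 0.425), with 36.8 to 924 in Mid and 169 to 690.5 in Fed. Of 14 genes of cholesterol synthesis and uptake, 9 fell and 1, *Fdft1*, rose (median -0.67). *Insig1*, a sterol sensor, fell from 26.3 ± 4.76 TPM in Fed to 12 ± 1.28 in Mid (-1.13 ± 0.14, FDR = 9.72e-07), and the regulator *Srebf2* fell by 0.78.

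Glucose genes moved in both directions, with 6 of 31 up and 10 down (median -0.16). Without Fed 1 those down numbered 2 and without Mid 8 they numbered 6, those up numbered 3 without Fed 2, and Mid 1 to 4 against Fed 1 to 4 gave 2 up and 0 down. *Slc2a1*, the basal glucose transporter, rose from 11.8 ± 2.16 to 33.6 ± 10.4, and *Txnip*, which lowers glucose uptake, from 183 ± 37.5 to 509.7 ± 141. *Tbc1d1* and *Pfkfb3* fell by 0.77 and 0.67. In the tricarboxylic acid cycle 6 of 19 rose and none fell (median 0.18), in the respiratory chain 25 of 80 rose and none fell (median 0.17), and in branched-chain amino acid breakdown 7 of 18 rose and none fell (median 0.18). Mitochondrial ribosomal proteins had 12 of 76 up and 2 down (median 0.07). Rises of the respiratory chain were at most 0.35 on the log2 scale. The counts of these 4 groups rested on single Fed libraries and on the scaling. In the respiratory chain, those up numbered 10 without Fed 1, 4 without Fed 2, 50 without Fed 3, 16 without Mid 7, 1 in a fit of the 12 libraries only, and 0 both without TMM factors and without Fed 1, Fed 2, Mid 2 and Mid 7 (median 0.04). In the tricarboxylic acid cycle they numbered 3 without Fed 1, 2 without Fed 2, 11 without Fed 3, 10 without Mid 3, and 0 without TMM factors or in the fit of 12. Mitochondrial ribosomal proteins had 5 up without Fed 1 or Fed 2, 23 without Fed 3, 19 without Mid 2, 20 without Mid 3 and 0 without TMM factors, and branched-chain amino acid breakdown 4 without Fed 2 and 1 without TMM factors. Of 9 ketone and monocarboxylate genes, 2 rose and 3 fell (median -0.05), and *Bdh1*, of ketone use, rose by 0.44. *Ucp3*, the mitochondrial uncoupling protein of muscle, was at 12, 17.4, 18.3 and 7.92 in Fed and at 34.0, 80.2 and 113 in Mid (2.50 ± 0.26, FDR = 1.64e-07), while its group, uncoupling and calcium handling, had 2 of 17 up and 4 down (median -0.11). Of 30 mitochondrial carriers, 9 rose and 8 fell (median 0.05), from *Slc25a34* (2.24) to the citrate carrier *Slc25a1* (-1.61).

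Targets of the glucocorticoid receptor had the highest median of the groups, 1.11, with 15 of 21 up-regulated and none down-regulated. In 13 of the 21, every Mid library lay above every Fed library, against 6.91% of all promoters. The list was chosen with earlier results of these data known. Its largest rise, 5.03, was that of *Mt2*, which is also counted in the metallothionein group. *Cebpd* rose from 25.9 ± 4.71 to 147 ± 56.9, *Arrdc2* from 7.79 ± 3.12 to 42.3 ± 16.9, and *Tsc22d3* and *Fkbp5* by 1.57 and 1.5. In insulin and IGF signalling, 6 of 21 rose and 4 fell (median 0.09). The insulin receptor substrate *Irs2* rose from 27.5 ± 3.41 to 61.1 ± 13.5 and *Foxo1* by 0.97, while *Igf1*, a local growth factor, fell from 18.6 ± 6.67 to 6.06 ± 2.96 and *Igfbp5* from 273 ± 57.1 to 108 ± 23.7. Of 21 genes of mTOR and its inhibitors, 7 rose and 3 fell (median 0.16). The inhibitors *Ddit4* and *Sesn1* rose by 2.65 ± 0.43 and 2.23 ± 0.25, the translation repressor *Eif4ebp1* by 1.07 ± 0.14 and *Mtor* itself by 0.49 ± 0.09, and *Ddit4l*, a relative of *Ddit4*, fell by 2.08 ± 0.27.

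Genes of protein breakdown rose more often than they fell. Of 18 muscle atrophy ligases and regulators, 11 rose and 1 fell (median 0.59). *Trim63* was at 177, 163, 196 and 166 in Fed and at 321, 818 and 1209 in Mid (2.22 ± 0.26, FDR = 5.53e-07), and *Fbxo32*, which encodes atrogin-1, at 102 to 159 and at 161, 293 and 413 (1.24 ± 0.17, FDR = 5.35e-06). For *Fbxo32* the highest Fed library, at 159, was close to the lowest Mid library, Mid 6, at 161. Of 35 proteasome subunits 24 rose and 2 fell (median 0.27). The 2 that fell, *Psmb8* and *Psmb10* (-0.76 and -0.78), belong to the immunoproteasome, and *Psmd11* rose most (0.72). Of 29 autophagy and mitophagy genes 16 rose and 1, *Atg5*, fell (median 0.33). *Gabarapl1*, an autophagosome protein, was at 51.2, 58.2, 72.9 and 58.3 in Fed and at 126, 324 and 413 in Mid (2.37 ± 0.21, FDR = 3.97e-08), and *Sqstm1* and *Ulk1* rose by 1.32 and 1.18. Of 52 translation factors 21 rose and 4 fell (median 0.17), and of 81 cytosolic ribosomal proteins 15 rose and none fell (median 0.09). Ribosomal protein genes have many near-identical copies, so their tags can be split between copies. Without TMM factors those up numbered 2 among the proteasome subunits (median 0.13), 1 among the translation factors and 0 among the cytosolic ribosomal proteins. The cytosolic ribosomal proteins had 2 up without Fed 1, 4 without Fed 2, 9 without Mid 1 and 23 without Mid 6.

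**Figure D4:**
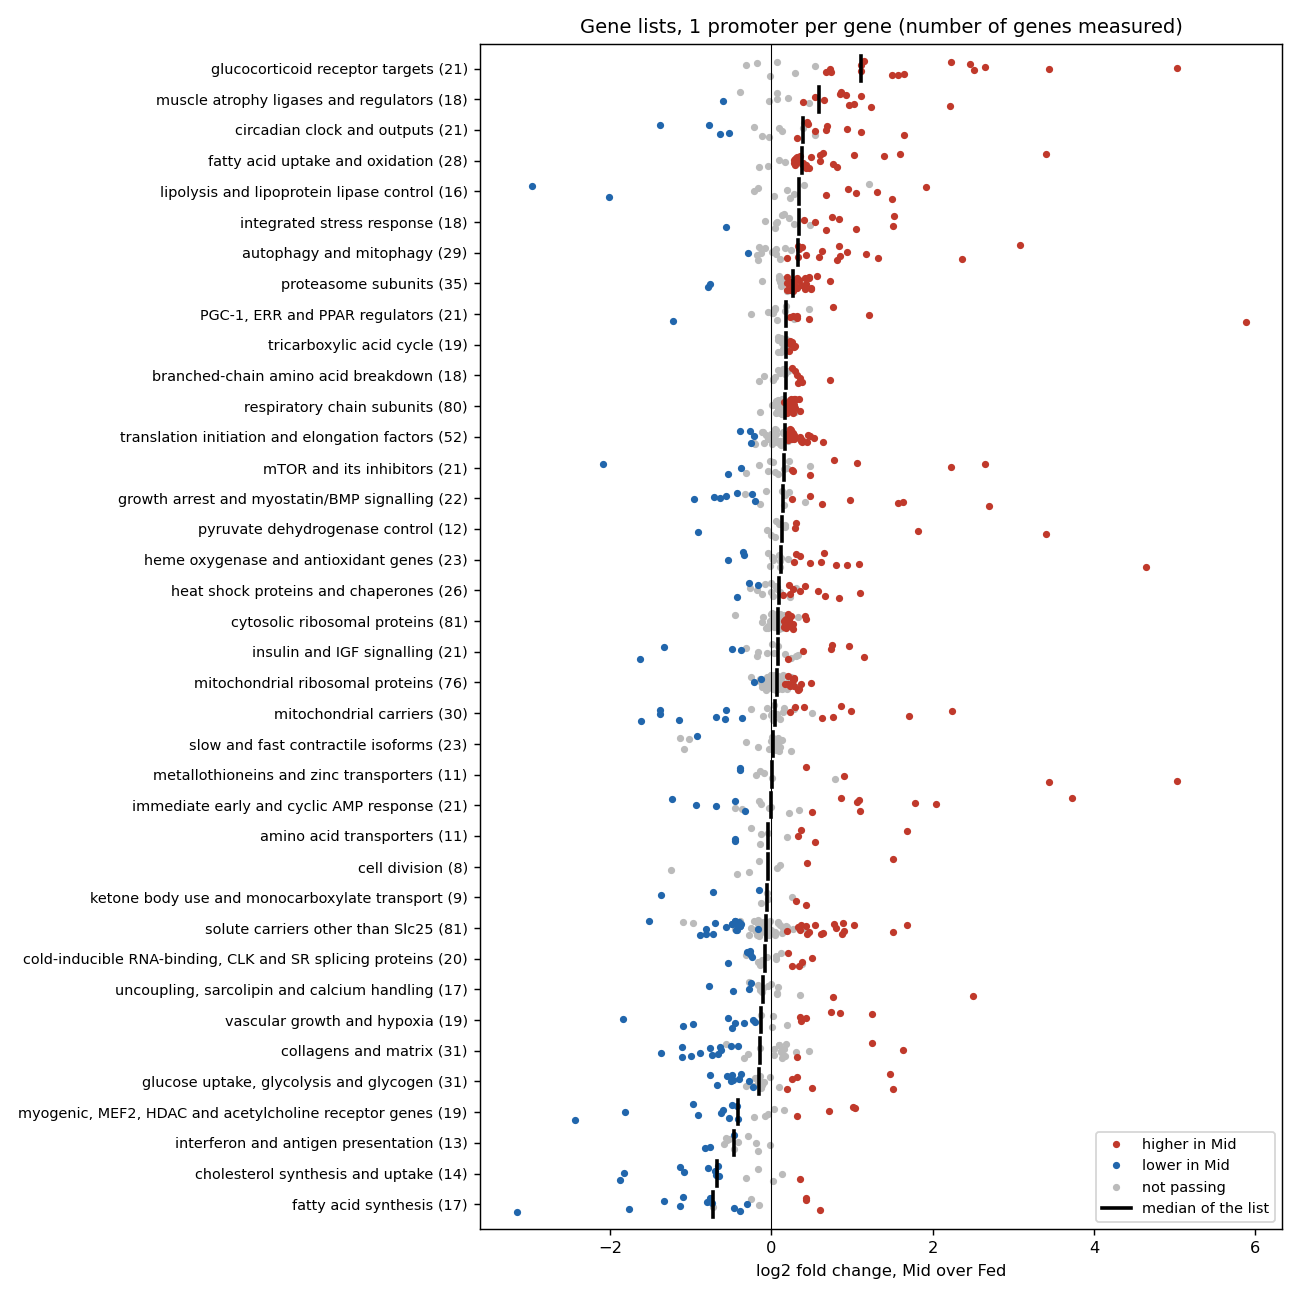
Log2 fold change of Mid over Fed for each measured gene of 38 gene groups, with the number of genes in parentheses and 1 promoter per gene. Red and blue points passed upward and downward, gray points did not pass and the black bar is the median, which runs from 1.11 for the glucocorticoid receptor targets to -0.72 for fatty acid synthesis.

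Stress groups were mixed, with a few large rises. Of 23 heme oxygenase and antioxidant genes, 10 rose and 3 fell (median 0.11), among them *Srxn1* (1.09) and *Gclm* (0.94), both NRF2 targets. Of 18 integrated stress response genes, 8 rose and 1 fell (median 0.34). *Ppp1r15a*, which restores translation, rose by 1.52, *Chac1* by 1.51, *Atf3* by 1.06 and *Atf4* by 0.68, while *Ddit3* fell by 0.56. In the immediate early and cyclic AMP group, 8 of 21 rose and 5 fell (median 0.0003), from *Myc* (2.04) and *Maff* (1.78) to *Nr4a1* (-0.93) and *Pde4a* (-1.23). Of 26 heat shock genes 10 rose and 3 fell (median 0.09), led by *Hspb1* (1.1), with 5 up without Fed 1 and 6 without Fed 2. Of 11 metallothionein and zinc transporter genes, 4 rose and 2 fell (median 0.01). The promoters of *Slc30a2* and *Slc39a14* counted here are their higher ones, at -0.19 and 0.43, and not those that rose by 3.12 and 4.0. Of the cold-inducible RNA-binding and splicing proteins, 5 of 20 rose and 5 fell (median -0.08), and the cold-inducible *Rbm3* and *Cirbp* rose by 0.35 and 0.26. In that group 1 gene was down without Fed 1, and 3 without Fed 2, Mid 1, Mid 4, Mid 6 or Mid 8.

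Clock genes had 9 of 21 up and 4 down (median 0.39). *Per1* rose at both of its promoters, by 1.65 ± 0.24 and 1.94 ± 0.31, and *Cry2* by 1.11. *Bhlhe40* and *Per3* fell by 1.39 and 0.63. Single time points were taken, so a changed level and a shifted phase cannot be told apart.

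Of 23 contractile genes 1 passed, *Actc1*, the cardiac actin (-0.92 ± 0.26), and the median was 0.03. Of 19 genes of the myogenic factors, MEF2, HDACs and the neuromuscular junction, 10 fell and 4 rose (median -0.41). Without Fed 1, Fed 2, Mid 2 and Mid 7, 3 were down and 3 up (median -0.32). Mid 1 to 4 against Fed 1 to 4 gave 6 down and 2 up (median -0.43). The histone deacetylases *Hdac9* and *Hdac4* fell by 1.81 and 0.91 and *Agrn* by 0.98, while *Musk* and *Dok7*, the receptor and adaptor that hold the junction together, rose by 1.04 and 1.01. In growth arrest and myostatin or BMP signalling, 7 of 22 rose and 7 fell (median 0.14), and those down numbered 4 without Fed 1, Fed 2 or Mid 7 and 3 without Mid 8. *Cdkn1a*, the cell cycle inhibitor p21, was at 32.9, 38.3, 30.9 and 41.5 in Fed and at 103, 248 and 289.6 in Mid (2.70 ± 0.27, FDR = 8.66e-08), *Gadd45g* rose by 1.64 and *Ccnd1* fell by 0.96. Of 8 measured cell division genes 2 rose and none fell (median -0.05), and *Mki67*, *Top2a* and *Mcm5* had no assigned promoter. The median of this group was 0.12 without Fed 2 and 0.31 without Fed 2 and Fed 3.

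Collagen and matrix genes had 12 of 31 down and 3 up (median -0.14). *Col3a1* fell from 401 ± 142 to 187 ± 58.5 and *Col15a1* from 33.9 ± 4.75 to 13.2 ± 5.22, while *Lox*, a collagen crosslinker, and *Ccn2* rose by 1.63 and 1.25. The median of this group was 0.09 without Fed 2 and Fed 3. Vascular and hypoxia genes had 9 of 19 down and 6 up (median -0.13). The apelin receptor *Aplnr* was at 19.2, 23.5, 27.7 and 22.9 in Fed and at 2.86, 5.25 and 17.5 in Mid (-1.83 ± 0.33, FDR = 0.000105), the VEGF receptor *Kdr* fell from 57.7 ± 1.53 to 27 ± 6.52, and *Egln3*, a HIF target, rose by 1.24. *Kdr* is 1 of the 6 endothelial genes summed above, so its fall and the lower endothelial sums are not separate observations. *Pecam1*, a general endothelial marker in the same sum, rose by 0.37 ± 0.09. Of 13 interferon and antigen presentation genes 3 fell and none rose (median -0.47), with 5 down without Mid 1 and 6 without Mid 6. Amino acid transporters (4 of 11 up, 2 down, median -0.04) were led by *Slc43a1* (1.68), and the remaining solute carriers were close to all genes, with 18 of 81 up, 19 down and a median of -0.07. The median of the amino acid transporters was 0.05, 0.06 and 0.12 without Fed 1, Fed 2 and Fed 4, and 12 of the remaining solute carriers were down without Fed 2.

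Among highly expressed promoters with a change of at least 0.5 on the log2 scale, *Pdk4* and *Fabp3* rose, and *Malat1*, a nuclear noncoding RNA, and *Hba-a2*, an alpha globin, fell. *Malat1* was at 4855, 4244, 2283 and 3338 in Fed and at 1826, 2397 and 3283 in Mid (-0.58 ± 0.15, FDR = 0.00481), with overlap. *Hba-a2* changed by -0.80, and without Fed 2 and Fed 3 its value was 0.12.

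Of the clusters tested, 1185 lay more than 500 bp from any annotated start. In these, 17.4% were up-regulated and 9.37% down-regulated (median 0.19), against 16.5% and 19.8% of the 9591 others (median -0.02). Clusters inside exons (569) had 12.8% up and 4.04% down, and clusters inside introns (229) 26.2% and 18.3%. Whether such clusters are starts of transcription of their own was not tested. An intronic cluster in *Kdm4a* (chr4:118147430-118147700, minus strand) rose from 0.966 ± 0.511 to 8.31 ± 2.90 (3.06 ± 0.39, FDR = 1.99e-06). Clusters in the introns of *Nt5c3* and *Mtus1* fell by 2.99 and 2.55. Long intergenic noncoding RNAs (76) had 17.1% up and 38.2% down, antisense RNAs (35) 17.1% and 34.3%, and processed pseudogenes (593), whose tags may belong to their parent genes, 18.2% and 3.54%.

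Motifs were read in 5578 tested promoters whose cluster peak lay within 100 bp of a RefSeq start, over 300 bases around it, on both strands and for 18 motifs. The full cyclic AMP element contains its own core, and other motifs were counted on their own. The glucocorticoid element was in 0.287% of all 5578 promoters, and in 5 of the 92 up-regulated at least 2-fold (5.43%) and none of the 145 down-regulated at least 2-fold. The 5 are *Trim63*, *Txnip*, *Map3k6* and *Fam107a*, shown above, and *Lrrc52*. *Fam107a* rose by 2.57 and *Map3k6* by 2.05. The FOXO site was in 2.53% of all, 7.61% of the 92 and 4.14% of the 145, the E-box in 11.2%, 18.5% and 2.76%, and the ATF4 element (TGATGNAA) in 1.9%, 5.43% and 3.45%. The D-box was in 1.97% of all, 2.17% of the 92 and 7.59% of the 145, the last mainly liver genes (*Alb*, *Ces1c* and near-identical *Mup* copies). The core of the cyclic AMP element was in 35.7%, 34.8% and 19.3%, and the TATA box (TATAAA) in 7.67%, 12% and 17.9%. The AP-1 site (TGANTCA) was in 4.39%, 4.35% and 8.97%. Of the 145, 48 were more than 5 times higher in Fed 2 and Fed 3 than in Fed 1 and Fed 4, among them 9 of the 11 with a D-box, 13 of the 26 with a TATA box, 8 of the 13 with an AP-1 site and 4 of the 6 with a FOXO site. A match is a run of letters and not a binding site.

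The other groups of the first set show where these promoters stood without torpor or without fasting. Dep mice were fasted at low temperature and kept out of torpor by touching, and HiT mice were kept at high ambient temperature, with food by the series design and fasted by the methods. These comparisons share the Mid or the Fed libraries with the one above and are not independent of it, so each is given by its own values and FDRs and no likeness between them was tested. Over all promoters, 2.03% differed between Dep and Mid, 11.2% between Fed and Pre, 43.2% between HiT and Fed and 41.0% between Mid and HiT. None of the 30 promoters with the largest changes passed between Dep and Mid or between Fed and Pre. Of the 15 largest rises, 15 were higher in HiT than in Fed (background 23.3%), 8 were higher in Mid than in HiT (19.2%) and 1 was lower (21.8%). Of the 15 largest falls, 13 were lower in HiT than in Fed (background 20%) and 1 was higher, and 5 were lower in Mid than in HiT and 1 was higher. *Pdk4* was at 4703 ± 1276 in Mid, 5101 ± 484 in Dep and 4551 ± 468 in HiT, and Mid and HiT did not differ past the threshold (0.05, FDR = 0.898). *Ppargc1a* was at 190.0 ± 119 in Mid and 212 ± 42.4 in Dep, but at 34.7 ± 10.8 in HiT (Mid over HiT 2.46, FDR = 0.00129) and 3.04 ± 2.02 in Fed. *Ampd3* and *Lrch1*, of the 8 higher in Mid than in HiT, were lower in HiT than in Mid, by 2.13 (FDR = 2.48e-07) and 2.00 (FDR = 1.4e-05). *Myod1* was at 14.1 ± 2.25 in HiT, 6.49 ± 1.34 in Dep, 4.18 ± 3.29 in Mid and 22.6 ± 0.957 in Fed, and HiT and Fed did not differ past the threshold (FDR = 0.107). The internal promoter of *Prkg1* was higher in HiT (31.4 ± 4.28) than in Fed (12.3 ± 3.27) and lowest in Mid (2.46 ± 1.45) and Dep (1.78 ± 1.38).

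**Figure D5:**
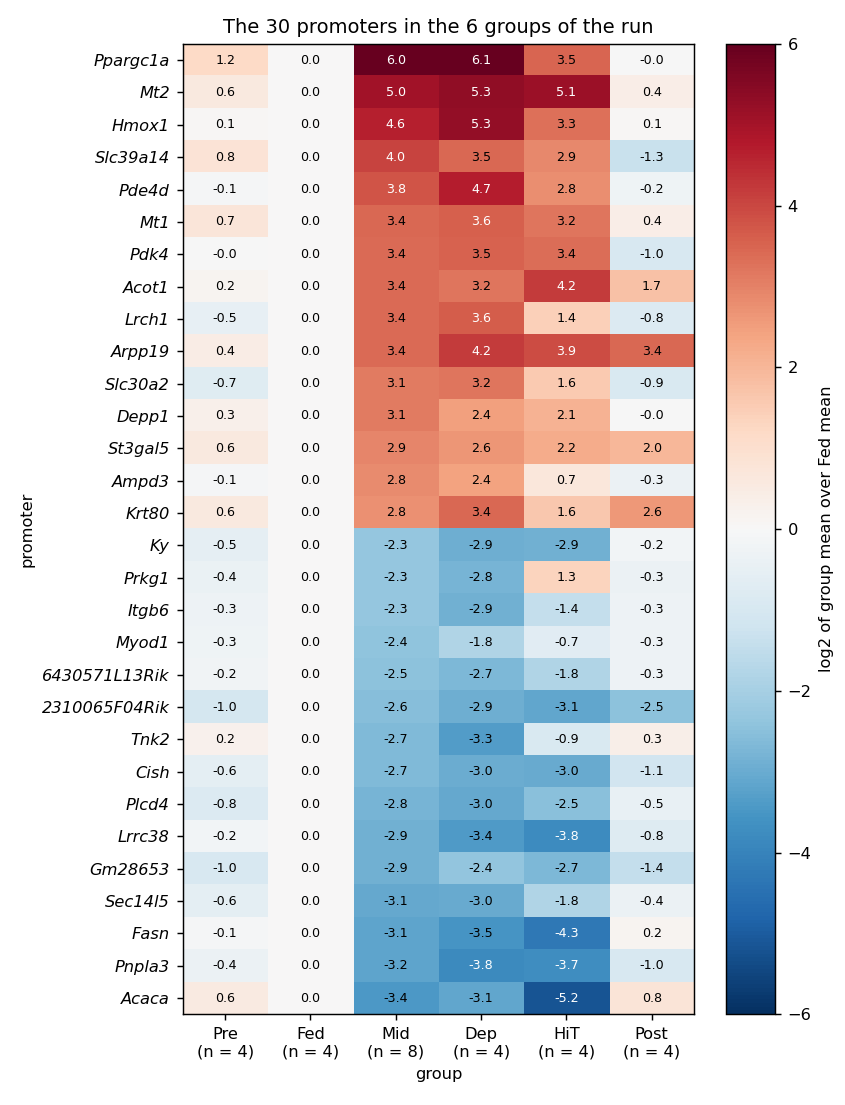
Mean level of the 30 promoters with the largest changes in the 6 groups of the first set. Values are the log2 of the group mean over the Fed mean, with promoters as lines of the map and groups as columns. Red is above and blue below Fed; *Ppargc1a* is dark red in Mid and Dep (190.0 and 212 TPM) and paler in HiT (34.7), and *Prkg1* is red in HiT (31.4) and blue in Mid (2.46).

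The second batch of mice holds 5 further Mid mice and 2 Pre mice, none of them used above. There, all of the 15 largest rises were higher in Mid than in Pre and 14 passed (background 5.3% of 10816 promoters), and all of the 15 largest falls were lower and 13 passed (background 4.44%). *Ppargc1a* rose by 3.6 (FDR = 0.00471) and *Pdk4* by 3.62 (FDR = 4.6e-05). *Arpp19* (2.67, FDR = 0.0517), *Pnpla3* (-2.05, FDR = 0.0619) and *2310065F04Rik* (-1.53, FDR = 0.144) did not pass. The reference in this batch was Pre on day 1 and not Fed on day 2.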

How the data were processed

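RNA of mouse soleus muscle was sequenced by nAnT-iCAGE, with 1 library per mouse. After trimming, the authors aligned reads to the mm10 genome by BWA and HISAT2 (versions not given in the sources used here), and start sites were clustered with PromoterPipeline. They deposited tag counts per cluster without normalization, used here, and the same counts per 1000000 tags of the library (CPM, which the table calls TPM), used only to check the counts. Clusters were named by the nearest GENCODE M21 gene start of the same strand within 500 bp, which gave 9615 clusters a gene and left 1204 without. Groups were taken from the sample titles.

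Counts of the 28 libraries of the first set were fitted together with edgeR 4.0.16 (R 4.3.3), with group as the only term. TMM factors, glmQLFit and glmQLFTest were used over the 10776 clusters with any tag, and p-values were Benjamini-Hochberg adjusted. The threshold was an FDR of 0.05, and the common dispersion was 0.0377. P-values rest on the spread between mice of the same group, estimated over all 28 libraries with information shared between promoters. No 2 libraries of a group were duplicates (34 pairs, lowest chi-square per promoter 34.2). At 18257657 tags or more per library, sampling of tags limits mainly promoters of a few tags. On simulated counts of 10775 promoters for Mid against Fed, 92% of 200 changes of 1 on the log2 scale were recovered, with 7 false calls.

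Named genes were the 15 largest changes in each direction among annotated promoters with a mean of at least 1 TPM and no overlap between groups, the lead and extreme members of 38 gene lists, the 6 opposite promoter pairs whose smaller change was largest, 5 highly expressed promoters and 15 marker lists, and some genes this rule takes are not reported here. Genes outside this rule were named as members of these lists, for motifs, or far from annotated starts. The comparison, lists and members were chosen with earlier results of these data known, and the liver list after seeing the data. Alternatives were the likelihood ratio test, 3 other scalings, filterByExpr, a fit of the 12 libraries only, a replicate block, each library left out, DESeq2 1.42.0 and, added after seeing the data, libraries with genes of other tissues left out. Columns of all 38 samples were matched to titles. Promoter sequences are from RefSeq on GRCm38.p6, and matched 10 of the 30 leading promoters.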

Additional observations from a re-analysis of the deposited data

Results flagged for a closer look

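In 282 groups of 8 or 4 libraries (the Mid or Fed libraries of each promoter named), 30 had a highest or lowest library that stood apart from its neighbours by more than Dixon's 95% limit for the group size. For normally distributed values, chance alone gives about 1 in 20 groups such a library. Whether these levels are distributed so was not tested, and neither was an excess over chance. Values are tags per 1000000 tags in clusters (TPM), and no cause was tested.

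Mid 6 was the library in 10 of the 30. It stood above the other Mid libraries in promoters that fell in Mid, *Cish* (10.5), *Itgb6* (13), *Lrrc38* (7.21), *Myod1* (12.1), *Sec14l5* (2.26) and *Tnk2* (5.82). It stood below them in promoters that rose, the internal promoter of *Casz1* (6.5), *Cdkn1a* (103), *Eif4ebp1* (145) and *Pdk4* (1717).

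Mid 1 stood above the other Mid libraries for *Acaca* (3.33), *Fasn* (26.7), *Scd1* (924), *H6pd* (33.7), *Angptl4* (92.2) and *B2m* (111). Its sum of adipocyte genes was 4436, against 2137 to 3337 in the other 11 libraries, and the part of fat in these values was not tested. Mid 3 was highest for *Fkbp5* (113), *Flt1* (165), *Sik1* (74.8) and *Tsc22d1* (90.5), Mid 5 for *Hmox1* (601) and *Slc30a2* (21.2), and Mid 7 for *Atf3* (29.2), *Atf4* (134) and *Slc38a2* (55.2).

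In Fed, Fed 1 stood high for *Lrrc38* (30.2) and *Tnk2* (20.7). Fed 2 stood low for *Cs* (566) and *G0s2* (93.8) and high for *Sik1* (18.5).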

How the results depend on the processing

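Numbers of promoters are given as up and then down. Alternatives that moved a count by more than 1.5 times were library size without TMM (509 up), the fit of Mid 1 to 4 against Fed 1 to 4 (884 and 863), the same with the replicate block (578 and 471, of which 170 at least 2-fold down) and, chosen after seeing the data, Fed 1, Fed 2, Mid 2 and Mid 7 left out (932 and 856). All but the first use fewer libraries. Of the 4 left out, Fed 2 was high in blood and nerve genes, and Fed 1 and Mid 2 in fast glycolytic muscle genes. Mid 7 stood less apart, with a fast glycolytic sum of 7842 beside 7428 in Fed 4. The labels do not say that numbers pair Mid with Fed mice, and same-numbered libraries deviated with correlations of 0.0967, 0.376, -0.179 and -0.113, so the replicate block is no paired result. With 1 library left out, promoters up numbered 1372 to 2055 and down 1571 to 2138, and those at least 2-fold up 242 to 294 and down 192 to 312. DESeq2 gave 2030 and 1933.

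Of 3818 values of 166 promoters named for size, lists or pairs, 269 were no longer past the threshold and 11 newly so. The 1 that turned its sign did so without Fed 2 and Fed 3. Genes named only as tissue markers are outside these 166. Among the 30 leading promoters, 1 lost its call in 1 of 23 settings (*2310065F04Rik*, FDR = 0.0567). Without Fed 2 and Fed 3, signs of blood and liver genes turned, with none past the threshold, for *Hba-a1* (0.12), *Hba-a2* (0.12), *Hbb-bs* (0.22), *Hbb-bt* (0.18), *Ahsg* (1.52), *Alb* (1.33), *Ambp* (0.76), *Apoa2* (1.49), *Apob* (0.48), *Apoc3* (2.62), *Apoh* (1.39), *Cps1* (1.17), *Cyp3a11* (2.06), *Fga* (0.81), *Fgb* (0.23), *Fgg* (0.91), *Serpina3k* (1.26) and *Ttr* (0.60). Depth limits promoters of a few tags, such as *Angptl8* (0 to 6 tags in Mid).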

Other observations

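Of the promoters tested, 3 were carried by 1 library, and 2 of these passed. A cluster without an assigned gene on chromosome 11 was at 56.0 TPM in Mid 8 and at most 0.755 in the other 11 libraries (log2 fold change 4.18, FDR = 0.0165, edgeR), and one on chromosome 4 was at 24.8 in Fed 1 and at 0 in the others (FDR = 0.0384). The third, on chromosome 6, was at 10.2 in Mid 1 and did not pass (FDR = 0.128).

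*Myh4*, the myosin of the fastest fibers, was at 1674, 461, 50.3 and 501 TPM in Fed 1 to 4 and between 5.72 and 969.8 in Mid (log2 fold change -1.08, FDR = 0.427, edgeR).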
